A study of Mus musculus with 12 samples.

Results

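The genes described here are 10 markers of the mural cells of blood vessels, namely Acta2, Tagln, Myl9, Myh11, Cnn1, Pdgfrb, Cspg4, Cd248, Rgs5 and Anpep, in the mouse prefrontal cortex (PFC) after repeated cocaine. They were chosen by name, as smooth muscle and pericyte genes, and all 10 were found among the 40438 gene names listed at all 3 time points, each on a single row per table. Adult male C57BL/6 mice, 10 weeks of age, received daily injections of saline (the chronic control) or of cocaine at 20 mg/kg for 14 days, and the bilateral PFC was taken at 1 of 3 times after the final dose (2 h, 24 h or 7 d). Each of the 6 groups gave 2 RNA-seq libraries, each made from the PFC of 5 pooled animals, so that 12 libraries stand for 60 mice. The deposited tables give a single FPKM (mapped fragments scaled to the length of the transcript and to the size of the library) per gene and group, already pooled over the 2 libraries. There are therefore no values per library here, no spread between replicates could be computed, and the depth behind each value is unknown from the tables.

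Mural cells wrap the endothelial tube. Smooth muscle cells form a contractile layer around arteries and arterioles and set their diameter by actin and myosin, whereas pericytes sit on capillaries, where they hold the endothelium in its barrier state and answer to platelet-derived growth factor from endothelial cells. In whole cortex these cells are few beside neurons and glia, so their transcripts are low in bulk RNA. A lower value in such tissue may come from fewer mural cells or from less RNA per cell, and these cannot be told apart.

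The levels of the members, per length of transcript, ran over a wide range. Rgs5, a regulator that turns off G-protein signaling and a pericyte marker, was the highest, with a mean over the 6 groups of 30.4 FPKM. Myl9, the regulatory light chain of smooth muscle myosin, followed at 13.7 FPKM, then Acta2, smooth muscle alpha actin, at 9.47 FPKM and Tagln, the actin-binding protein transgelin, at 6.87 FPKM. The receptor for platelet-derived growth factor B, Pdgfrb, had a mean of 4.4 FPKM. The next 4 genes lay close together, and the ranges of their 6 values overlapped: Cd248 (endosialin, a surface glycoprotein) at 2.36 FPKM, Cspg4 (the NG2 proteoglycan, shared by pericytes and oligodendrocyte precursors) at 2.19 FPKM, Anpep (the surface peptidase aminopeptidase N) at 2.05 FPKM and Myh11 (smooth muscle myosin heavy chain) at 1.84 FPKM. Cnn1, calponin of smooth muscle, was at 0.148 to 0.224 FPKM in every group and did not reach the mean FPKM of 0.5 set as a minimum for counts and tests. The other 9 members passed this minimum at every time point. Markers of cortical neurons were abundant in the same tissue, with a mean of 502 FPKM for Slc17a7 and 1473 FPKM for Snap25.

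The locus of 9 of the 10 members contained no other protein-coding gene in the RefSeq annotation of GRCm38, to which the file positions belong. The exception was Tagln, whose row runs from 45838580 to 45936058 on chromosome 9, over 97479 bases, while the RefSeq gene covers the last 6431 of them. Bace1, Rnf214 and Pcsk7 lie in the rest of that locus, and the value listed for Tagln is the less certain for it. The row of Acta2 covers 34241090 to 34255336 on chromosome 19, that of Myh11 covers 14194527 to 14291408 on chromosome 16, and that of Cd248 covers 5068078 to 5070637 on chromosome 19.

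Many contractile genes of smooth muscle are transcribed through serum response factor, which binds a short element named the CArG box, with myocardin as its cofactor. Promoters of contractile members are shown because this element is where serum response factor binds. RefSeq promoters of GRCm38.p6 were matched for 6 members (Acta2, Myl9, Cnn1, Cspg4, Rgs5 and Anpep), and the 250 bases before the annotated start were searched. The search took the CArG box and its form with a single G or C in the central 6 bases, which reads the same on both strands. Acta2 and Myl9 held matches, which stand in capitals, 5′ to 3′ on the strand of the gene. The first is from chr19:34255374-34255623, minus strand, and the second from chr2:156775214-156775463, plus strand.
Acta2: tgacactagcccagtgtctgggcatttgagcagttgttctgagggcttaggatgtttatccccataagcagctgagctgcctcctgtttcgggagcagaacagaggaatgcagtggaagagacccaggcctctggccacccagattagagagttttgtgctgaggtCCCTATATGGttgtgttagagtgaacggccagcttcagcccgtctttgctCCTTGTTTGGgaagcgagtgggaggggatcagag
Myl9: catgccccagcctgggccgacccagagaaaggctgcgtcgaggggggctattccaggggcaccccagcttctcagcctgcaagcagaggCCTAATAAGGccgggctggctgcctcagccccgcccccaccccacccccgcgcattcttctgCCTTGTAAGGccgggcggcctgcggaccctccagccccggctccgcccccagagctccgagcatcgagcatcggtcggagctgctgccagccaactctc

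In Acta2 the matches begin 84 and 34 bases before the start used for its promoter, and both carry a single G or C in the centre. The RefSeq span of the Acta2 gene reaches position 34255585, so both matches lie inside that span. In Myl9 the match that begins 161 bases before the start is a full CArG box, and that at 99 bases carries a single G. A full CArG box was found in 1.4% of 27025 promoters of the same length, and 2 or more matches of either kind in 0.673%. In the windows of Cnn1, Cspg4, Rgs5 and Anpep these letters were not found. A match is a description of the sequence and was not tied to binding in these animals.

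At 7 d after the last injection, most mural genes had a higher FPKM in cocaine than in saline. The log2 ratio of cocaine to saline, taken after adding 0.1 to each FPKM, was above 0 for 8 of the 9 members that passed the minimum, and their median was 0.28, beside -0.01 over the 15526 genes that passed at 7 d. The members Acta2, Myh11 and Cd248, 3 in number, were higher in cocaine by at least 1.3-fold, and none was lower by as much. Over all genes, 4.55% were higher and 6.39% lower by this fold. With 1 pooled value a group these are descriptions with no test.

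Among the contractile genes at 7 d, the saline value of Acta2 was 6.71 FPKM and its cocaine value 9.38 FPKM (log2 0.48). Myh11 went from 1.14 FPKM in the saline group to 1.65 FPKM in the cocaine group (log2 0.50). Smooth muscle alpha actin and the myosin heavy chain lay at like ratios, while the myosin light chain Myl9 lay lower. Myl9 stood at 10.8 FPKM after saline and 13.1 FPKM after cocaine (log2 0.28), and Tagln 5.34 and 6.50 FPKM (log2 0.28), both short of 1.3-fold. Cnn1, under the minimum, had 0.148 and 0.224 FPKM, and no fold was read from values this low.

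Among the surface genes at 7 d, Cd248 showed the largest ratio of the 9 members, from 1.73 FPKM in saline to 2.72 in cocaine (log2 0.62). Pdgfrb was listed at 3.73 and 4.64 FPKM (log2 0.31) and Cspg4 at 2.43 and 2.84 FPKM (log2 0.22). Anpep, with 2.18 and 2.13 FPKM (log2 -0.03), was the only member that passed the minimum and was not higher in cocaine at 7 d. Rgs5 differed less than the contractile genes, with 26.9 FPKM after saline and 29.7 FPKM after cocaine (log2 0.14).

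**Figure D1:**
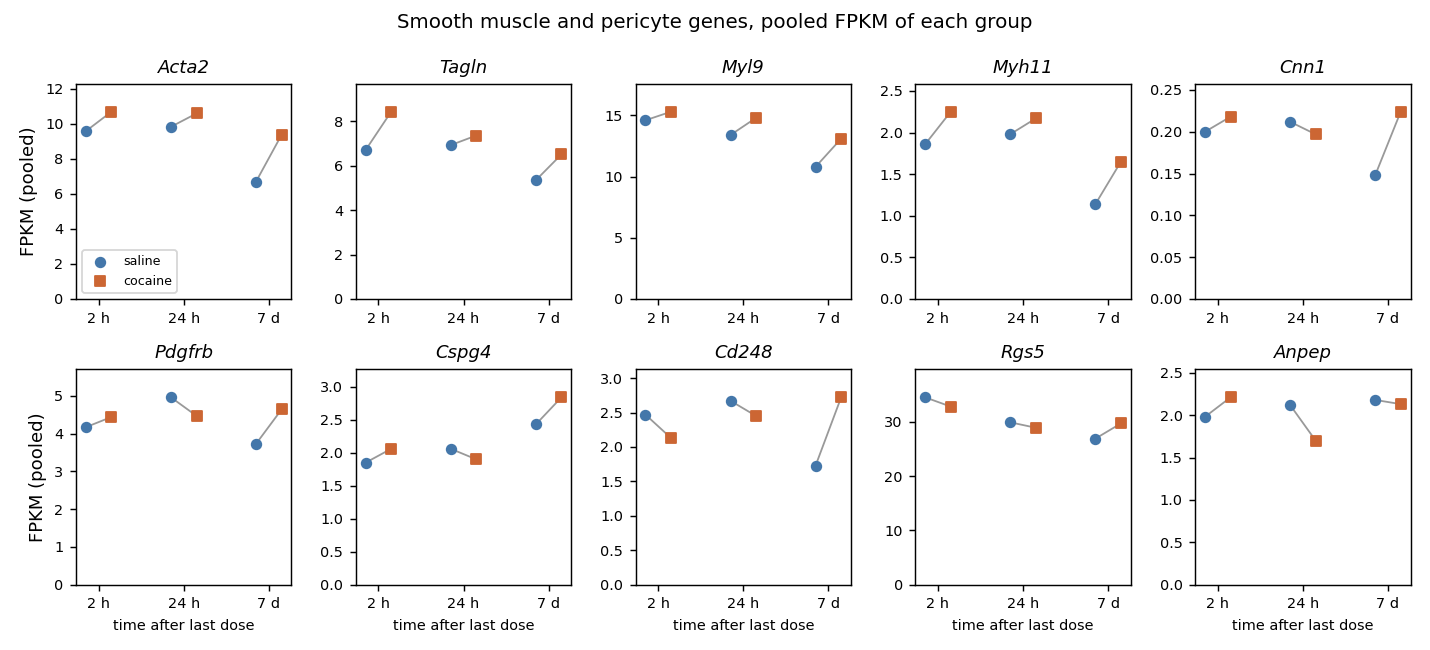
Pooled FPKM (vertical axes, from 0) of each of the 10 genes in saline (circles) and cocaine (squares) at 2 h, 24 h and 7 d after the last dose; each point is the authors' pooled value of 2 libraries, so there is no error bar, and a line joins the groups of a time point. The saline point at 7 d is the lowest of the 6 in 7 of the 9 genes that pass the minimum, and in Cnn1.

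At 2 h the members stood closer to saline. Their median log2 ratio was 0.15, beside 0.02 over 15352 genes, with 7 of 9 above 0, and none reached 1.3-fold in either direction, against 6.05% of all genes higher and 5.28% lower. The largest ratio among the 9 was that of Tagln, from 6.70 FPKM in saline to 8.42 in cocaine (log2 0.33), followed by Myh11, from 1.86 to 2.25 FPKM (log2 0.26). Acta2 had 9.59 and 10.7 FPKM (log2 0.16), and Myl9 14.6 and 15.3 FPKM (log2 0.07). Of the surface genes, Pdgfrb, Cspg4 and Anpep had log2 ratios of 0.09, 0.15 and 0.15. Cd248 lay the other way at 2 h, with 2.47 FPKM after saline and 2.13 FPKM after cocaine (log2 -0.21). Rgs5 was listed at 34.5 and 32.8 FPKM (log2 -0.07).

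At 24 h the contractile and the surface genes parted in sign. The 4 contractile genes that passed the minimum were higher in cocaine, with log2 ratios of 0.10 for Acta2, 0.09 for Tagln, 0.14 for Myl9 and 0.13 for Myh11. All 4 surface genes were lower, with -0.15 for Pdgfrb, -0.11 for Cspg4, -0.12 for Cd248 and -0.30 for Anpep. Anpep, the farthest from saline at this time point, went from 2.12 to 1.70 FPKM, and Rgs5 from 29.9 to 28.9 FPKM (log2 -0.05). None of the 9 members reached 1.3-fold, against 3.8% of all genes higher and 3.87% lower, so the split rests on signs of small ratios. The median of the members was -0.05, beside 0.01 over 15613 genes.

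**Figure D2:**
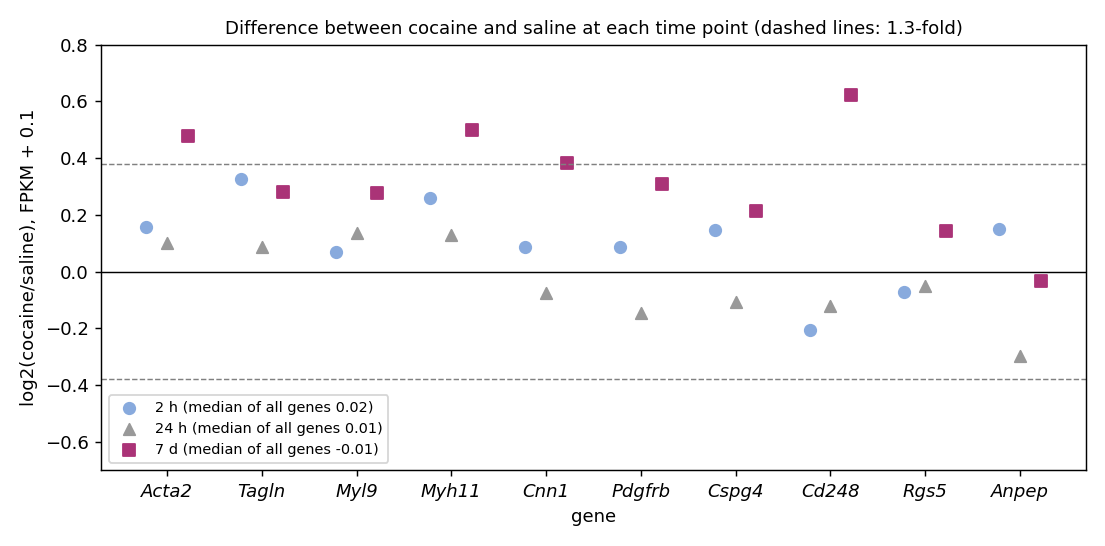
Log2 ratio of cocaine to saline (vertical axis, FPKM + 0.1) for each gene at 2 h (circles), 24 h (triangles) and 7 d (squares), with dashed lines at 1.3-fold. The squares of Acta2, Myh11 and Cd248 lie above the upper line, as does that of Cnn1, which is under the minimum FPKM; the triangles of Cnn1, Rgs5 and all 4 surface genes lie below 0.

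Each time point had its own saline and cocaine animals, so the 3 ratios of a gene share no samples. A difference shared by the time points was tested with limma on the 3 log2 ratios of each gene, over 15660 genes. No member passed a Benjamini-Hochberg adjusted p of 0.05 in limma, and the share of all genes that did was 0.00639%, a single gene (Rny3, a small RNA listed at 0 in saline at each time point). The limma p-values measure the spread between the 3 time points, not between animals. At an unadjusted p under 0.05 limma gave 3 members, all higher in cocaine, against 7.77% of all genes (4.48% higher and 3.29% lower). They were the contractile genes Tagln (mean log2 ratio 0.23, SE 0.07 over 3 time points), Acta2 (0.25, SE 0.09) and Myl9 (0.16, SE 0.06), each with a limma adjusted p of 0.625 (0.522 to 0.917 over the alternatives). The number of members at an unadjusted p under 0.05 fell to 0 in limma without 2 h, to 1 (Tagln) without 24 h and to 0 without 7 d. Such a fit rests on fewer ratios, and the reason for the lower count was not tested. Myh11 had the highest mean, 0.30 with an SE of 0.11, at an unadjusted limma p of 0.0516. These 4 genes were higher in cocaine at 3 of 3 time points, a pattern found in 18.3% of the 14955 genes that passed the minimum at each. For the other 5 members the mean ratio was smaller than its SE: 0.08 for Pdgfrb (SE 0.10), 0.08 for Cspg4 (SE 0.10), 0.10 for Cd248 (SE 0.19), 0.01 for Rgs5 (SE 0.06) and -0.06 for Anpep (SE 0.12).

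Between time points, the ratio at 7 d exceeded that at 24 h in 9 of 9 members, by a median of 0.32 on the log2 scale, while over all genes this difference had a median of -0.03 and was above 0 in 44.4%. Against 2 h, the ratio at 7 d was higher in 7 of 9 members, with a median difference of 0.21, beside a median of -0.03 and 43.1% above 0 over all genes. The ratio was highest at 7 d in 7 of 9 members, against 29.1% of all genes, and lowest at 24 h in 6 of 9, against 31.9%. Cd248 differed most between times, by 0.75 from 24 h and by 0.83 from 2 h. The exceptions against 2 h were Tagln, lower at 7 d by a difference of -0.04, and Anpep, by -0.18. No test of these differences was made, since each ratio has no replicate error.

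At 7 d the saline values of most members were low beside those of the earlier saline groups. Saline at 7 d was the lowest of the 6 pooled values for 7 of the 9 members (Acta2, Tagln, Myl9, Myh11, Pdgfrb, Cd248 and Rgs5), against 28.6% of all genes. Single markers of neighbouring cells showed this too, and its share over their whole lists is not given here. Endothelial Pecam1, Flt1 and Vwf and fibroblast Igf2 and Fmod also had their lowest value in saline at 7 d. Endothelial Cldn5 and Egfl7 and fibroblast Mgp and Dcn did not. The tables of the 3 time points were normalized separately, and levels set across them carry that limit. Saline Acta2 was 9.59, 9.84 and 6.71 FPKM at 2 h, 24 h and 7 d, whereas cocaine Acta2 was 10.7, 10.6 and 9.38 FPKM. Saline Myh11 was 1.86, 1.98 and 1.14 FPKM, and cocaine Myh11 was 2.25, 2.17 and 1.65 FPKM. For Cd248 the saline values were 2.47, 2.67 and 1.73 FPKM, and only for this gene of the 3 was cocaine at 7 d, with 2.72 FPKM, above every saline value. Against saline at 24 h, saline at 7 d was lower by at least 1.3-fold in 4 members (Acta2, Myh11, Pdgfrb and Cd248), against 9.02% of all genes lower and 7.68% higher, and the median of the members was -0.37, beside -0.02 over all genes. Against saline at 2 h it was lower by this fold in 4 members too (Acta2, Myl9, Myh11 and Cd248), against 6.39% of all genes lower and 8.53% higher. The earlier saline groups lay closer to each other: none of the 9 members differed by 1.3-fold between saline at 2 h and saline at 24 h, where 3.88% of all genes were higher and 6.86% lower.

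Cocaine at 7 d stood nearer to the earlier saline groups. Its median log2 ratio over the members was -0.0317 against saline at 2 h and -0.0415 against saline at 24 h, and a single member, Cspg4, was higher by 1.3-fold in each (log2 0.59 and 0.45), against 6.5% and 4.96% of all genes, and none was lower, against 5.73% and 6.53%. Acta2 then had ratios of -0.03 and -0.07, and Myh11 of -0.17 and -0.25. Cd248 had ratios of 0.13 and 0.03. None of the 3 calls at 7 d (Acta2, Myh11 and Cd248) held with either earlier saline group in place. Among the cocaine groups, 7 d against 2 h had Cspg4 higher (log2 0.44) and Myh11 lower (-0.42) by the fold, against 7.39% and 8.57% of all genes. Cocaine at 7 d against 24 h had Cspg4 alone higher (0.55) and none lower, against 5.54% and 7.42%. Cspg4 and Anpep did not share the low saline value, since saline Cspg4 was 1.85, 2.06 and 2.43 FPKM and saline Anpep 1.98, 2.12 and 2.18 FPKM at 2 h, 24 h and 7 d.

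At 7 d the ratio of cocaine to saline was higher with greater transcript length over all genes: in 20 groups of genes by the length of the longest coding transcript, the group medians went from -0.22 at 660 nt to 0.14 at 9131 nt. The mural genes of short transcripts did not follow this. Myl9 (1128 nt), Tagln (1586 nt) and Acta2 (1781 nt) lay above the medians of their length groups by 0.44, 0.39 and 0.56, and Cd248 (2560 nt) by 0.65. For the long transcripts of Myh11 (6632 nt), Pdgfrb (5423 nt) and Cspg4 (8050 nt) the distance from the group median was 0.37, 0.23 and 0.07, each less than the ratio itself. With this trend taken out, Myh11 was no longer past 1.3-fold, while Tagln and Myl9 were. Over the 9 members the median distance was 0.37 at 7 d, with 8 above 0.

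**Figure D3:**
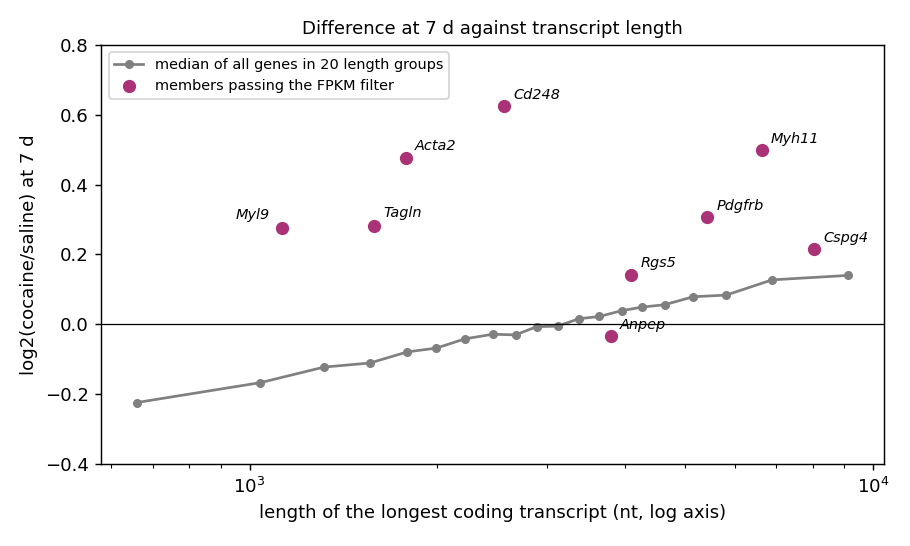
Log2 ratio of cocaine to saline at 7 d (vertical axis) against the length of the longest coding transcript (nt, log axis); grey points joined by a line are medians of all genes in 20 length groups, and large points are the 9 members that pass the minimum FPKM. Myl9, Tagln, Acta2 and Cd248 lie above the grey line where it is below 0, and Anpep alone lies below the line.

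Other genes of the same cells were taken from lists written by name. Of 20 further smooth muscle genes, 16 passed the minimum at 7 d, with a median log2 ratio of 0.10. Of these, 3 were higher by 1.3-fold, against 4.55% of all genes. They were Vcl (vinculin, which anchors actin at adhesions), Itga8 (an integrin subunit) and Ppp1r12b (a subunit of myosin phosphatase). Vcl was higher by this fold at 2 h too, at 2.09 and 3.13 FPKM, and at 7 d it had 1.43 and 2.13 FPKM. Itga8 was lower at 2 h (log2 -0.44) and higher at 24 h and 7 d (0.47 and 0.44), at under 1 FPKM in each group. The most abundant of the list, Myl6, Csrp1, Tpm1 and Actn1, are expressed by many cells beside muscle and had log2 ratios of -0.25, 0.11, -0.12 and 0.09 at 7 d.

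Of 20 further mural cell genes, all passed the minimum at 7 d, with a median of 0.11. None was higher by 1.3-fold, against 4.55% of all genes. Cox4i2 and Art3 were lower, from 4.59 to 2.96 FPKM and from 5.33 to 3.12 FPKM, against 6.39% of all genes. Notch3, the receptor that maintains arterial smooth muscle, had 1.33 and 1.66 FPKM (log2 0.30). Vtn (vitronectin), Slc6a20a (an amino acid transporter) and Zic1 (a transcription factor) had log2 ratios of 0.02, 0.12 and 0.20, and Rgs4, which neurons express as well, -0.10. At 24 h 17 of 19 of these genes were lower in cocaine, with a median of -0.17, while 52.5% of all genes were above 0. Higd1b and Ndufa4l2 were lower by 1.3-fold, against 3.87% of all genes. The further smooth muscle genes did not share the sign of the contractile members at 24 h, with 8 above 0, 9 below and a median of -0.01. Ratios below 0 at 24 h were also found in most fibroblast (11 of 14), astrocyte (7 of 8) and microglial (7 of 9) markers.

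Among the signals that pass between endothelium and mural cells, Pdgfb, the ligand of the Pdgfrb receptor, was higher in cocaine at 2 h, from 7.76 to 13.3 FPKM (log2 0.77), and its ratios at 24 h and 7 d were 0.24 and 0.21. The receptor had 4.17 and 4.44 FPKM at 2 h. Notch1 and Tgfb1 were higher by 1.3-fold at 2 h (log2 0.44 and 0.40), and Edn1, the vasoconstrictor endothelin, was lower, from 1.52 to 0.958 FPKM. Over all genes, 6.05% were higher and 5.28% lower by this fold at 2 h. The paper lists Pdgfb among the MAPK pathway genes that differed at 2 h. Notch1 at 2 h was marked there as significant neither by RNA-seq nor by RT-PCR. At 7 d a single gene of the 16, the Notch ligand Jag1, reached the fold (log2 0.40), against 4.55% of all genes higher and 6.39% lower. The most abundant genes of this list, S1pr1, Eng, Hey1 and Pdgfa, stayed within 0.24 of 0 at each time point. Among 10 genes of the serum response factor axis, Srf itself went from 9.92 to 13.8 FPKM at 2 h (log2 0.48) and Klf4, which opposes the contractile state of smooth muscle, 2.07 and 4.23 FPKM (log2 0.99). At 7 d none of the 9 that passed the minimum reached the fold, while Srf had a ratio of 0.22. Rhoa, Fhl2, Elk1 and Rock2 were the most abundant of this axis, with ratios from -0.19 to 0.01 at 7 d.

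Markers of neighbouring cells moved with the members in part, and their part in the results was not tested. The 16 endothelial markers had medians of 0.15 (2 h), -0.06 (24 h) and 0.14 (7 d), and their summed level ran from 282.3 to 321.6 FPKM over the 6 groups, with no marker at 0. At 7 d 13 of 16 were above 0 and Vwf alone reached 1.3-fold (log2 0.48), against 4.55% of all genes higher. The most abundant, Egfl7, Ly6c1 and Cldn5, had ratios of -0.11, -0.04 and 0.12 at 7 d. With the endothelial median taken as the centre, Cd248 was the only member past 1.3-fold at 7 d, while 8 of 9 stayed above 0. The 14 fibroblast markers, of cells that share Pdgfrb, Cd248 and Anpep with pericytes, had medians of 0.12, -0.21 and 0.29, a summed level of 169.5 to 205.6 FPKM, and no marker at 0. At 7 d its most abundant genes Mgp, Igf2 and Fmod had ratios of 0.02, 0.33 and 0.32, and the collagens Col1a1, Col1a2 and Col3a1 were the fibroblast genes higher by 1.3-fold. The 9 markers found for oligodendrocyte precursors, which share Cspg4, had a median of 0.23 at 7 d, with 8 of 9 above 0 and sums of 83.57 to 99.01 FPKM. Astrocyte markers had medians of 0.19, -0.15 and 0.21, with 7 of 8 below 0 at 24 h. The 5 red blood cell markers found were all higher by 1.3-fold at 2 h, against 6.05% of all genes, with a median of 0.64. Their summed levels were 323.3 and 503.8 FPKM in saline and cocaine at 2 h, where no mural member reached that fold.

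**Figure D4:**
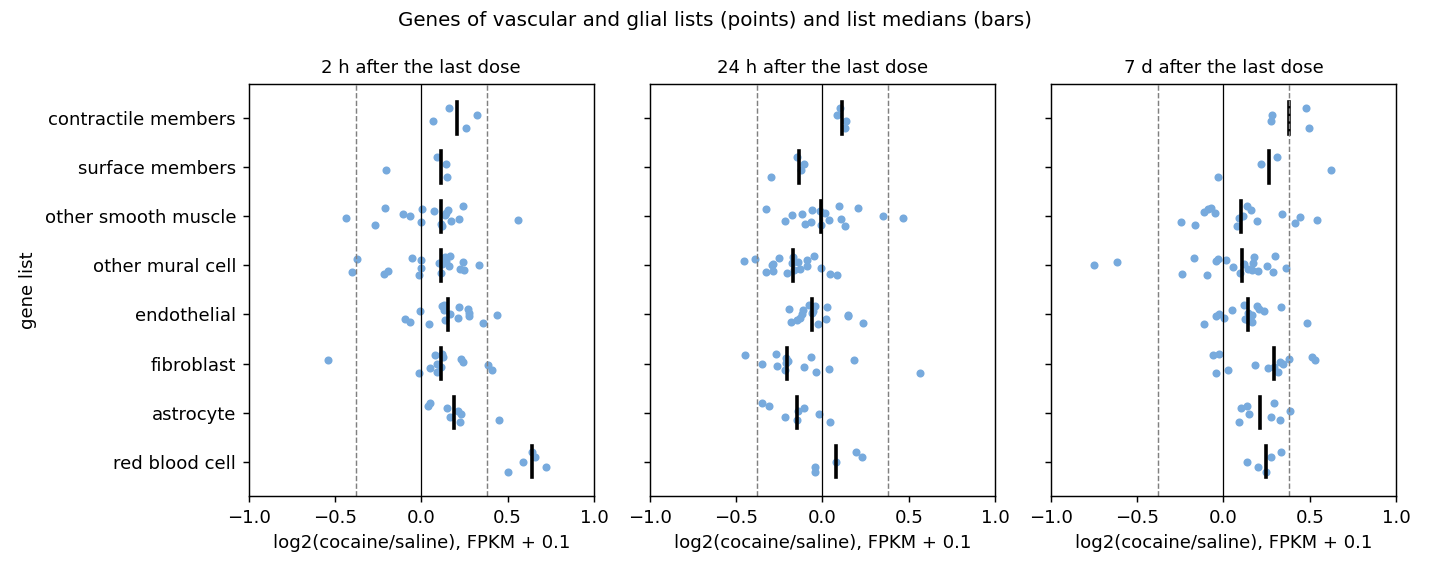
Log2 ratio of cocaine to saline (horizontal axis, FPKM + 0.1) for genes of 8 lists at each time point; points are genes with a mean of at least 0.5 FPKM, black bars are list medians and dashed lines mark 1.3-fold. At 24 h the contractile members lie right of 0 and the surface members left of 0, and at 2 h the red blood cell markers lie past the right dashed line.

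Over the 6 pooled values, the members' levels did not all run together. The Pearson correlation of a member's log2 FPKM with the mean of the other members was 0.89 for Acta2, 0.82 for Myh11, 0.80 for Tagln, 0.78 for Myl9 and 0.75 for Pdgfrb, but -0.22 for Anpep and -0.40 for Cspg4. These are descriptions over 6 values that share 3 separately normalized tables. Of 14061 genes outside the lists with a mean of at least 1 FPKM, the 5 closest to the mean profile of the members were Dab2, Agap1, Gm13378, Podxl and Apba1, with r from 0.986 to 0.992. A correlation of 0.9 or more was reached by 335 of these genes, 2.38%. At 7 d Dab2 had 2.32 and 2.74 FPKM in the saline and cocaine groups, and Podxl, a sialomucin of endothelium, at 5.45 and 7.26 FPKM.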

How the data were processed

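Reads were trimmed by the authors and mapped with TopHat2, only unique alignments were retained, and each time point was run through Cuffdiff. Per the labels, Trimmomatic 0.32, TopHat2 2.0.12 and Cufflinks 2.2.1 were used on GRCm38, whereas the methods name cutadapt and mm9. The listed positions overlapped the same gene for 99.9% of genes in GRCm38 at 7 d and for 15.6% in NCBIM37, so GRCm38 was used. The deposited values are FPKM, pooled by the authors over the 2 libraries of a group. The tables also hold the authors' fold change, test statistic, p value and q value, which were not used. Value columns were assigned to saline and cocaine by the group names in the tables and the labels and by the column headings in the paper. The control was read as saline from the study's methods. Protocol texts differ on read length and on the number of libraries.

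Where several rows named a gene, the longest locus was taken. Log2 ratios used a pseudocount of 0.1, genes needed a mean of 0.5 FPKM, and a fold of 1.3 was called without a test. On this scale the change of low genes is understated. limma 3.58.1 in R 4.3.3 fitted the mean of 3 ratios per gene, with an intensity trend and Benjamini-Hochberg adjustment, after tests on simulated data. Python 3.11.15 with pandas 2.3.3 and matplotlib 3.10.9 did the rest. Transcript lengths are those of GENCODE M1, by symbol. Intervals and floors from counts could not be given without counts.

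The members, gene lists and settings were chosen with earlier results of these data known. Named genes were all members, the most abundant genes of each further mural list, list genes called in the same direction at 2 or more time points, relatives of the members, the most abundant genes of the marker lists, and the 5 nearest profiles. Some marker list results are not reported here. Other list genes past the fold, and Notch3, were named after their values were seen. Alternatives were other pseudocounts, filters, folds and centres, summed rows, the length trend taken out, and each time point left out.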

Additional observations from a re-analysis of the deposited data

How the results depend on the processing

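No paired analysis was possible because the value columns are pooled over the replicates of a group and carry no replicate number. No library was left out, since none has a value of its own.

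With a fold of 1.2, a single member was higher at 2 h (1, Tagln), a single member lower at 24 h (1, Anpep), and 6 members were higher at 7 d. With a fold of 1.5, a single member was higher at 7 d (1, Cd248). These shifts follow from the threshold itself. The share of all genes at folds of 1.2 and 1.5 is not given here, so these counts have no background beside them. Pseudocounts of 1 and 0.01, a minimum of 1 FPKM, no minimum, centring on all genes, summed rows and the length trend moved no count of called members by over 1.5 times, but which members were called at 7 d differed. Myh11 lost its call with a pseudocount of 1 (0.31) and with the length trend taken out (0.37), where Tagln (0.39) and Myl9 (0.44) gained one, and Cnn1 was called with no minimum.

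The alternatives that follow were chosen after seeing the data. With saline of 2 h in place of saline of 7 d, 1 member was higher by the fold at 7 d, 4 were above 0 and the median was -0.0317, and Acta2 and Myh11 had ratios of -0.0317 and -0.17, and Cd248 of 0.13. With saline of 24 h in its place, 1 was higher, 3 were above 0 and the median was -0.0415, and Acta2 and Myh11 had ratios of -0.0679 and -0.25, and Cd248 of 0.03. With the endothelial median as the centre, 1 was higher, 8 were above 0 and the median was 0.1382. The cause was not tested.

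In limma no member passed an adjusted p of 0.05 under any alternative, with adjusted p from 0.522 to 0.997. The number of members at an unadjusted p under 0.05 was 1 with a pseudocount of 1 and 1 with centring, Tagln in both. It was from 0 to 1 when a time point was left out (0 without 2 h, 1 without 24 h, 0 without 7 d), where the fit rests on fewer ratios.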

Other observations

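Of 14 relatives of the members, 13 passed the minimum, with median log2 ratios of 0.06 (2 h), 0.05 (24 h) and 0.05 (7 d), and Cnn2 at 2 h was the only value past 1.3-fold. The cytoplasmic actins Actb and Actg1 had means of 437 and 482 FPKM, against 9.47 FPKM for Acta2, and log2 ratios of 0.18 and -0.03 at 7 d, against 0.48. Nonmuscle myosin Myh9 had 6.78 FPKM in saline and 8.67 in cocaine at 7 d (log2 0.35) and a ratio of 0.33 at 2 h, next to those of Myh11 (0.50 and 0.26), whereas Myh10, at a mean of 58.6 FPKM, had 0.05 and -0.03. Among the calponins, Cnn2 went at 2 h from 3.76 to 5.00 FPKM, and Cnn3 had a ratio of 0.10. The transgelin relatives Tagln2 and Tagln3 had ratios of 0.06 and -0.18 at 7 d, against 0.28 for Tagln. Pdgfra, the receptor of precursors and fibroblasts, had -0.01, -0.31 and 0.29 at 2 h, 24 h and 7 d, beside 0.09, -0.15 and 0.31 for Pdgfrb.

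Further marker lists were checked for cells outside the vessel wall, and no value among them was tested. Microglial markers (C1qb, C1qa and C1qc the most abundant) had medians of 0.12, -0.05 and -0.06 at the successive times, and neuronal markers (Snap25, Camk2a, Slc17a7) of 0.03, 0.01 and 0.06. Of 8 choroid plexus markers only Ttr and Kcnj13 passed the minimum, and Otx2 was listed at 0 in saline at every time point. Ttr, the transthyretin of choroid plexus, had 1.90 and 0.461 FPKM in saline and cocaine at 2 h, 1.80 and 1.10 FPKM at 24 h, and 0.284 and 6.54 FPKM at 7 d. Kcnj13 did not share this difference, with 2.04 FPKM in saline and 2.16 FPKM in cocaine at 7 d. Folr1, under the minimum, lay the other way at 7 d, with 0.668 and 0.29 FPKM.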
